A study of Homo sapiens with 12 samples.

Results

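The effect of ionizing radiation was measured over both drug arms of an experiment in MSTO-211H, an established human mesothelioma cell line that the submitters grew in suspension and describe as mesothelioma-initiating. Cells first received vehicle or QTP at 10 µM, an abbreviation that the labels leave unexplained, and 4 Gy or a sham exposure followed a day later. RNA was isolated 48 h after the exposure. The labels give the groups as Con, IR, Rx and Combo, read here as vehicle with sham exposure, vehicle with 4 Gy, QTP with sham exposure and QTP with 4 Gy. The labels do not spell out Rx and Combo, so the reading of these names rests on the stated treatments. The 6 irradiated libraries (IR 1 to 3 and Combo 1 to 3) were set against the 6 sham libraries (Con 1 to 3 and Rx 1 to 3), which together are all 12 libraries of the series. For each gene, the radiation difference is the average of IR minus Con (the vehicle arm) and Combo minus Rx (the QTP arm) on log2(FPKM + 1), so that QTP is balanced between the sides. FPKM counts the reads of a gene per kilobase of its length, scaled to the depth of its library. Of 58735 genes in the table, 13038 had a mean of at least 1 FPKM and were tested, and 10751 of these were protein-coding. A single line was used, and the labels do not state whether the replicates of a group were grown apart, so p-values here speak for library-to-library spread alone, part of which may be technical.

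As background, double-strand breaks made by radiation activate the kinases ATM and ATR, which stabilize the transcription factor p53. Among the genes that p53 switches on is CDKN1A, whose product p21 inhibits cyclin-dependent kinases. With these kinases inhibited, the pocket protein RB1 stays bound to E2F factors, and its relatives RBL1 and RBL2 stay in the DREAM complex. Genes for DNA replication and mitosis are then repressed. DREAM and the activator pair MYBL2 and FOXM1 reach mitotic genes through a promoter element called CHR, the cell cycle genes homology region, often beside a CCAAT box, which binds NF-Y, whereas replication genes more often carry an E2F element.

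In the fit over all 12 libraries, limma with Benjamini-Hochberg adjustment called 0 of 10751 protein-coding genes higher (0% of those tested) and 0 lower (0%), with a lowest adjusted p of 0.349. Voom on the recovered reads also called 0. Each gene is therefore given by its values. Without adjustment, 358 protein-coding genes were higher at p under 0.05 (3.33%) and 595 were lower (5.53%). Over all 13038 tested genes these counts were 435 (3.34%) and 674 (5.17%), and voom gave 533 and 636. Rescaling to TPM moved the split to 229 higher and 756 lower, leaving out Con 1 raised the higher count to 722, and leaving out Con 2 reduced the lower count to 439. The typical differences were small: the median over protein-coding genes was -0.01, the median standard error was 0.07, and 25 genes differed by more than 0.5 in either direction. All 6 irradiated libraries lay above all 6 sham libraries for 19 protein-coding genes (0.177%) and below them for 36 (0.335%). Within each arm taken alone, the 3 irradiated libraries lay above the 3 sham libraries for 47 protein-coding genes (0.437%) and below them for 89 (0.828%).

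The libraries held 13188257 to 18630958 reads each, with similar ranges on both sides (irradiated median 16541616). Transcripts of the mitochondrial genome took 6.73% to 10.5% of reads in irradiated libraries and 6.74% to 9.78% in sham libraries. On the first principal component, which held 26.5% of the variance, IR 3 (28.7) and Combo 3 (-21.5) stood at opposite ends, and the main results are therefore given with and without them. Of 16 markers of immune, red, endothelial, fibroblast, liver and glial cells, 14 were under 0.1 FPKM, CD3E and LYZ were at 0 in all libraries, and the summed level was 6.03 to 9.72 FPKM in irradiated and 5.22 to 7.66 FPKM in sham libraries, nearly all from LUM and PDGFRB. Of 16 mesothelial markers, 6 passed the filter, led by KRT18 (mean 549 FPKM), KRT8 (476 FPKM) and MSLN (40.1 FPKM), whereas PDPN was at 0 in all libraries and KRT19 and UPK3B were under 0.1 FPKM.

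The genes for mitosis were lower after radiation in both drug arms. All 73 tested members of 3 lists (mitotic kinases and cyclins, mitotic kinesins and spindle proteins, kinetochore and centromere proteins) had a negative average difference, where 52.3% of all tested protein-coding genes did. Their median was -0.34, against -0.01 for all protein-coding genes. The sign was negative in each arm for 70 of the 73, against 25.5% of protein-coding genes, with a median of -0.29 for IR minus Con and -0.38 for Combo minus Rx. Unadjusted p was under 0.05 for 58 of 73, beside 5.53% of protein-coding genes, and 0 of them passed adjustment by limma. Within each arm, 6 of the 73 had all irradiated below all sham libraries, beside 0.828% of protein-coding genes. In bulk RNA, fewer cells in mitosis and less of these transcripts per cell cannot be told apart.

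Promoter sequences of some named genes for mitosis, proliferation and replication are shown, picked because they hold a cell-cycle element of one kind or the other. Each line is read 5′ to 3′ along the gene's own strand, from 150 bases before the RefSeq start site to 20 bases after it, in RefSeq's GRCh38.p14 assembly. The windows are HMMR at chr5:163460482-163460651 (plus strand), KIF11 at chr10:92592980-92593149 (plus strand), MKI67 at chr10:128126404-128126573 (minus strand), CDT1 at chr16:88803639-88803808 (plus strand) and LIG1 at chr19:48170325-48170494 (minus strand). Capitals mark the letters of CHR (TTTGAA), of the CCAAT box (CCAAT) and of E2F elements (TTTCGCGC, TTTCCCGC or TTTGGCGC), each on either strand, so that a reverse match reads as its complement. Neighbouring matches can share letters or run together, as in the HMMR and MKI67 lines.
HMMR: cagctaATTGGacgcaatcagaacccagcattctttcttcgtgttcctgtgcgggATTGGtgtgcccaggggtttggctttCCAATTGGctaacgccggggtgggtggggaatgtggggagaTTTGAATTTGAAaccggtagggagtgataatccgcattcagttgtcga
KIF11: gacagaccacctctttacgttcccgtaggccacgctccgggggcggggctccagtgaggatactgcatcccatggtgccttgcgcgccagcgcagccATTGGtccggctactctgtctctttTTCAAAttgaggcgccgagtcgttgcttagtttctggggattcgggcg
MKI67: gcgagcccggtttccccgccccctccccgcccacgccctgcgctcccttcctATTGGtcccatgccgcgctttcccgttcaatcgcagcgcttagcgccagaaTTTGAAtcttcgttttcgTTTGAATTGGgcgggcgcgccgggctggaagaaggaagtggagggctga
CDT1: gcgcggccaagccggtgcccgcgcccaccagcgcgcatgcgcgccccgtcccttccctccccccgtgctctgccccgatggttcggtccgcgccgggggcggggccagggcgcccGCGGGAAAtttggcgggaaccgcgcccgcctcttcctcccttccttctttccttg
LIG1: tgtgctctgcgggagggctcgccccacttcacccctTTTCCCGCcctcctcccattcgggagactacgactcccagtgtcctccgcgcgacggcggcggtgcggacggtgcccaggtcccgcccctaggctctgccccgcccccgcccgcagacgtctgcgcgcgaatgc

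HMMR, a spindle-associated protein, held CHR letters at positions -28 and -22 from its start site, next to each other on the plus strand of the gene. MKI67, the source of the proliferation antigen Ki-67, held them at -47 and -29, and KIF11, the kinesin that pushes spindle poles apart, held them at -28 on the reverse strand with a CCAAT match at -53. CDT1, which loads the replicative helicase, and LIG1, the ligase that joins Okazaki fragments, held no CHR letters in the 300 bases searched (250 before the start and 50 after) but an E2F match at -35 and -114. Other genes named below were mixed. NDC80 and CDC20 held CHR letters, whereas CENPE, SPC24 and CENPW held none. GINS1 held an E2F match, whereas POLD1, TIMELESS and CDC45 held none. Of the 73 mitotic genes, 61 had a promoter in the table, and 35 of them (57.4%) held CHR letters, against 9.23% of the 8631 tested protein-coding genes with a promoter and 15.4% of all 27305 promoters. A CCAAT box was in 67.2% of the mitotic promoters, against 36.6% of tested protein-coding genes and 35.7% of all promoters. It did not set the mitotic genes apart from other lists. The box was in 60% of 15 promoters of p53 arrest targets and in 85.7% of 21 promoters of the unfolded protein response. In the replication genes described below, with 44 promoters, CHR letters were in 4.55%, a CCAAT box in 56.8% and E2F letters in 45.5%. E2F letters were in 6.56% of the mitotic promoters, 4.85% of tested protein-coding genes and 2.79% of all promoters. These are matches of letters, not measured binding.

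**Figure D1:**
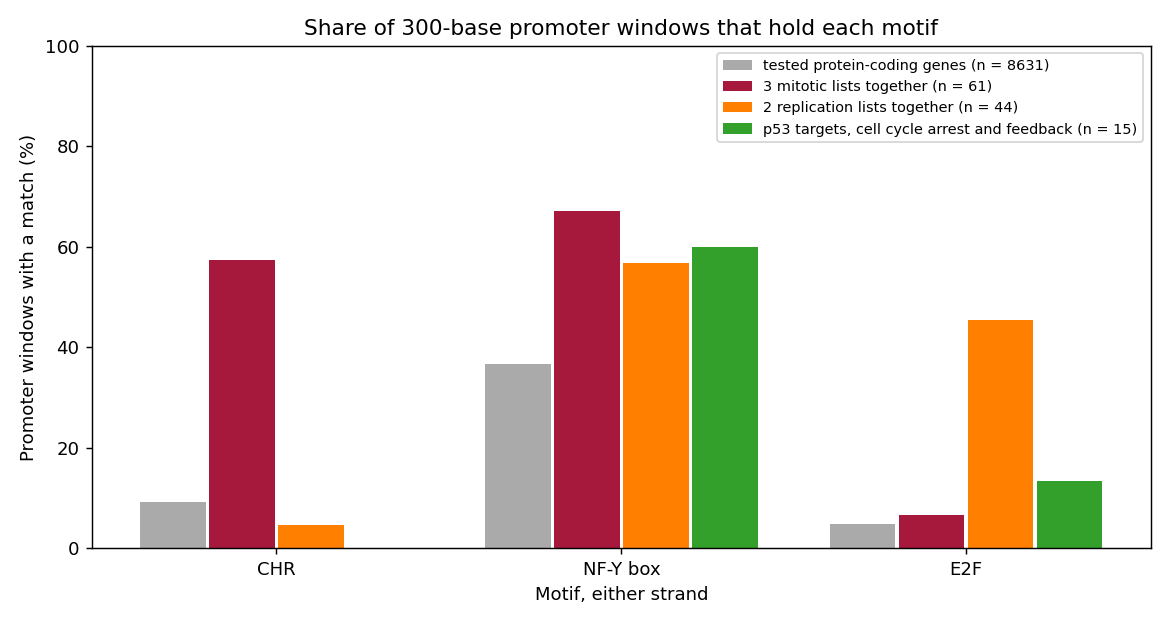
Share (%) of 300-base promoter windows with a match to each motif on either strand, for tested protein-coding genes (grey, 8631 windows), the 3 mitotic lists (61), the 2 replication lists (44) and p53 targets of cell cycle arrest (15); the NF-Y box is the CCAAT box. CHR matches are most frequent in the mitotic lists (57.4%) and E2F matches in the replication lists (45.5%).

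Set against the radiation difference, promoter windows with both CHR and CCAAT letters belonged to 341 tested protein-coding genes, and 17.6% of these were lower at an unadjusted p under 0.05, against 5.71% of all 8631 genes with a promoter. For the 456 genes with CHR but no CCAAT letters the share was 5.48%. E2F letters went with 13.1% of 419 genes. With every gene of the lists used here left out, 9.9% of 293 genes with both CHR and CCAAT letters were lower at that threshold, against 4.7% of 8014 such genes with a promoter. E2F letters then went with 8.01% of 362 genes, and CHR letters, with or without a CCAAT box, with 5.96% of 705. The median differences of these groups were small (-0.03 for CHR with CCAAT and -0.03 for E2F), so most genes with the letters differed little.

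Among mitotic kinesins and spindle proteins, all 24 members were lower on average and in each arm, with a median of -0.38. CENPE, the kinesin that links kinetochores to microtubules, measured 3.06, 3.50 and 2.94 FPKM in Con, 2.08, 1.99 and 1.53 in IR, 2.61, 2.32 and 2.15 in Rx, and 2.01, 1.93 and 1.42 in Combo. All 6 irradiated libraries lay below all 6 sham libraries, and the average difference was -0.41 (SE 0.08). KIF11 measured 4.08, 4.47 and 2.78 FPKM in Con, 2.55, 2.70 and 2.53 in IR, 3.71, 3.52 and 2.85 in Rx, and 2.45, 2.23 and 1.75 in Combo. It too did not overlap between the sides, although IR 2 (2.70) came close to Con 3 (2.78), and its difference was -0.43 (SE 0.10). HMMR was at 6.44, 7.15 and 5.55 FPKM in Con, 4.51, 4.85 and 4.46 in IR, 6.12, 5.62 and 4.66 in Rx, and 4.68, 3.53 and 3.35 in Combo, a difference of -0.40 (SE 0.09). Here Rx 3 (4.66) lay within the irradiated range.

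Of the mitotic kinases, cyclins and checkpoint genes, all 26 were lower in each arm, with a median of -0.34. TPX2, which targets Aurora A to the spindle, was at -0.50 (SE 0.12), PKMYT1, an inhibitory kinase of CDK1, at -0.39 (SE 0.10), and CDC20, the activator of the anaphase-promoting complex, at -0.52 (SE 0.15). TPX2 ran from 14.8 to 25.8 FPKM in sham libraries and from 9.89 to 16.3 FPKM in irradiated libraries, with no overlap within either arm. Of the 23 kinetochore genes, all were lower and 20 were lower in each arm, with a median of -0.29. SPC24 and NDC80, subunits of the complex that holds microtubules, differed by -0.45 (SE 0.10) and -0.47 (SE 0.11), and CENPW, a histone-fold protein of the inner kinetochore, by -0.42 (SE 0.10).

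The same held for genes of chromosome condensation and cohesion, of which all 15 were lower and 14 were lower in each arm (median -0.32). MKI67 measured 12.7, 13.1 and 10.1 FPKM in Con, 8.67, 7.40 and 4.78 in IR, 10.7, 9.11 and 6.62 in Rx, and 7.65, 6.72 and 5.11 in Combo. The groups overlapped in the QTP arm, where Rx 3 (6.62) lay below Combo 1 and Combo 2, and the average difference was -0.55 (SE 0.15). NCAPG2, a condensin subunit, was at -0.39 (SE 0.10). HMGB2, a chromatin protein of dividing cells, differed by -0.16 in the vehicle arm and by -0.63 in the QTP arm; the difference between arms had an unadjusted p of 0.0167, and limma called 0 of the 10751 protein-coding genes for such a difference after adjustment (0%; 6.82% were under 0.05 without it).

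Rx 3 stood low and Con 2 high for all these lists. The mean of the 24 kinesin and spindle genes was 2.41 to 2.80 in Con, 2.18 to 2.31 in IR, 2.17 to 2.61 in Rx and 1.85 to 2.16 in Combo. These groups did not overlap within either arm, if narrowly in the QTP arm (Rx 3 at 2.169, Combo 1 at 2.163). Across arms, Rx 3 lay among the irradiated libraries. Kinetochore genes were also narrowly apart in the QTP arm (2.217 and 2.215). There Rx 3 lay below Combo 1 for mitotic kinases (2.579 and 2.649) and for condensation and cohesion genes (3.025 and 3.087). Leaving out each library in turn gave 0 positive members in any of the 3 mitotic lists. Without IR 3 and Combo 3 the medians in the vehicle and QTP arms were -0.30 and -0.29 for kinesins, -0.26 and -0.33 for mitotic kinases and -0.21 and -0.27 for kinetochore genes. In that set 15 of 24, 16 of 26 and 10 of 23 were lower at an unadjusted p under 0.05, where the full set had 21, 22 and 15. Over all 13038 tested genes the lower count was 685 without these 2 libraries and 674 in the full set.

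**Figure D2:**
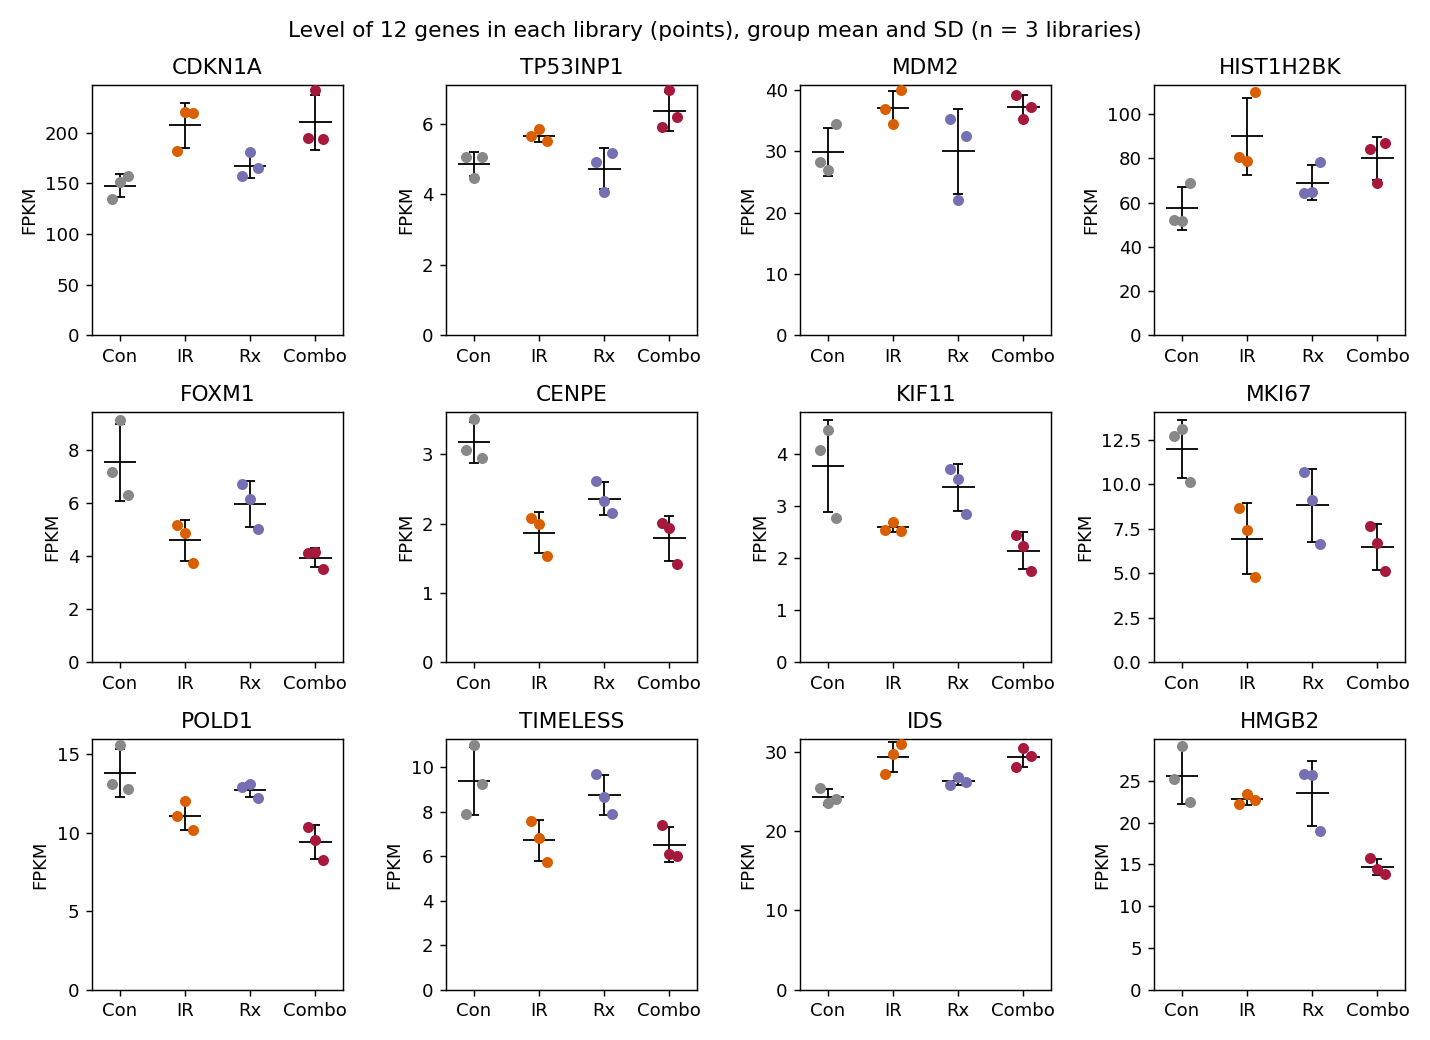
Level in FPKM (vertical axes, from 0) of 12 genes in each library (points) by group, with the group mean and SD (n = 3 libraries). CDKN1A, TP53INP1 and IDS are higher in all 6 irradiated libraries than in all 6 sham libraries, CENPE, KIF11, POLD1 and TIMELESS are lower, and MKI67, FOXM1, HMGB2, MDM2 and HIST1H2BK overlap across the sides.

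Among 16 proliferation transcription factors and their partners there was no shared direction: 7 were higher, 9 were lower and the median was -0.04 (-0.01 without IR 2, -0.02 without Combo 3 and -0.07 without IR 3). The 3 with the smallest p were all lower. Of the 16, 2 were lower at an unadjusted p under 0.05, beside 5.53% of protein-coding genes. FOXM1, the forkhead factor of mitotic gene expression (ENSG00000111206, chromosome 12, 2857681 to 2877155 in hg38), measured 7.15, 9.13 and 6.31 FPKM in Con, 5.18, 4.85 and 3.73 in IR, 6.71, 6.13 and 5.00 in Rx, and 4.11, 4.16 and 3.52 in Combo. Irradiated libraries lay below sham libraries in each arm, only Rx 3 (5.00) and IR 1 (5.18) crossing between arms, and the average difference was -0.55 (SE 0.10), with -0.61 in the vehicle arm and -0.49 in the QTP arm. E2F1, which drives entry into S phase, differed by -0.43 (SE 0.10). MYBL2, which opens mitotic promoters with MuvB, differed by -0.36 (SE 0.18), with sham libraries spread from 3.52 to 8.91 FPKM.

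Genes for DNA replication were lower as well, by less. Of 51 genes in 2 lists, 50 had a negative difference (median -0.24) and 45 were negative in each arm, against 25.5% of protein-coding genes. Of 21 licensing and helicase genes, CDC45, part of the replicative helicase, differed by -0.49 (SE 0.14), and GINS1 and CDT1 by -0.36 (SE 0.11) and -0.34 (SE 0.11). Of 30 genes of replication forks and nucleotide supply, POLD1, the catalytic subunit of DNA polymerase delta, measured 13.1, 15.6 and 12.8 FPKM in Con, 11.1, 12 and 10.2 in IR, 12.9, 13.1 and 12.2 in Rx, and 10.4, 9.54 and 8.29 in Combo. All 6 irradiated libraries were below all 6 sham libraries, if narrowly (IR 2 at 12 and Rx 3 at 12.2), and the difference was -0.35 (SE 0.07). TIMELESS, which steadies stalled forks, also did not overlap (irradiated 5.74 to 7.58 FPKM, sham 7.89 to 11 FPKM; difference -0.40, SE 0.09). LIG1 differed by -0.21 (SE 0.06).

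For replication the counts leaned more on single libraries than for mitosis. Unadjusted p was under 0.05 with a negative sign for 12 of 21 licensing genes and 21 of 30 fork genes, beside 5.53% of protein-coding genes. The counts were 6 and 11 without Con 2, 6 and 12 without Combo 3, 7 and 14 without Rx 1 or without Rx 2, and 7 and 9 without IR 3 and Combo 3. Over all 13038 tested genes the lower count was 674. It was 439 without Con 2, 465 without Combo 3, 587 without Rx 1, 628 without Rx 2 and 685 without IR 3 and Combo 3. The median was negative in every setting tried, from -0.33 to -0.17 for licensing and from -0.29 to -0.17 for forks.

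**Figure D3:**
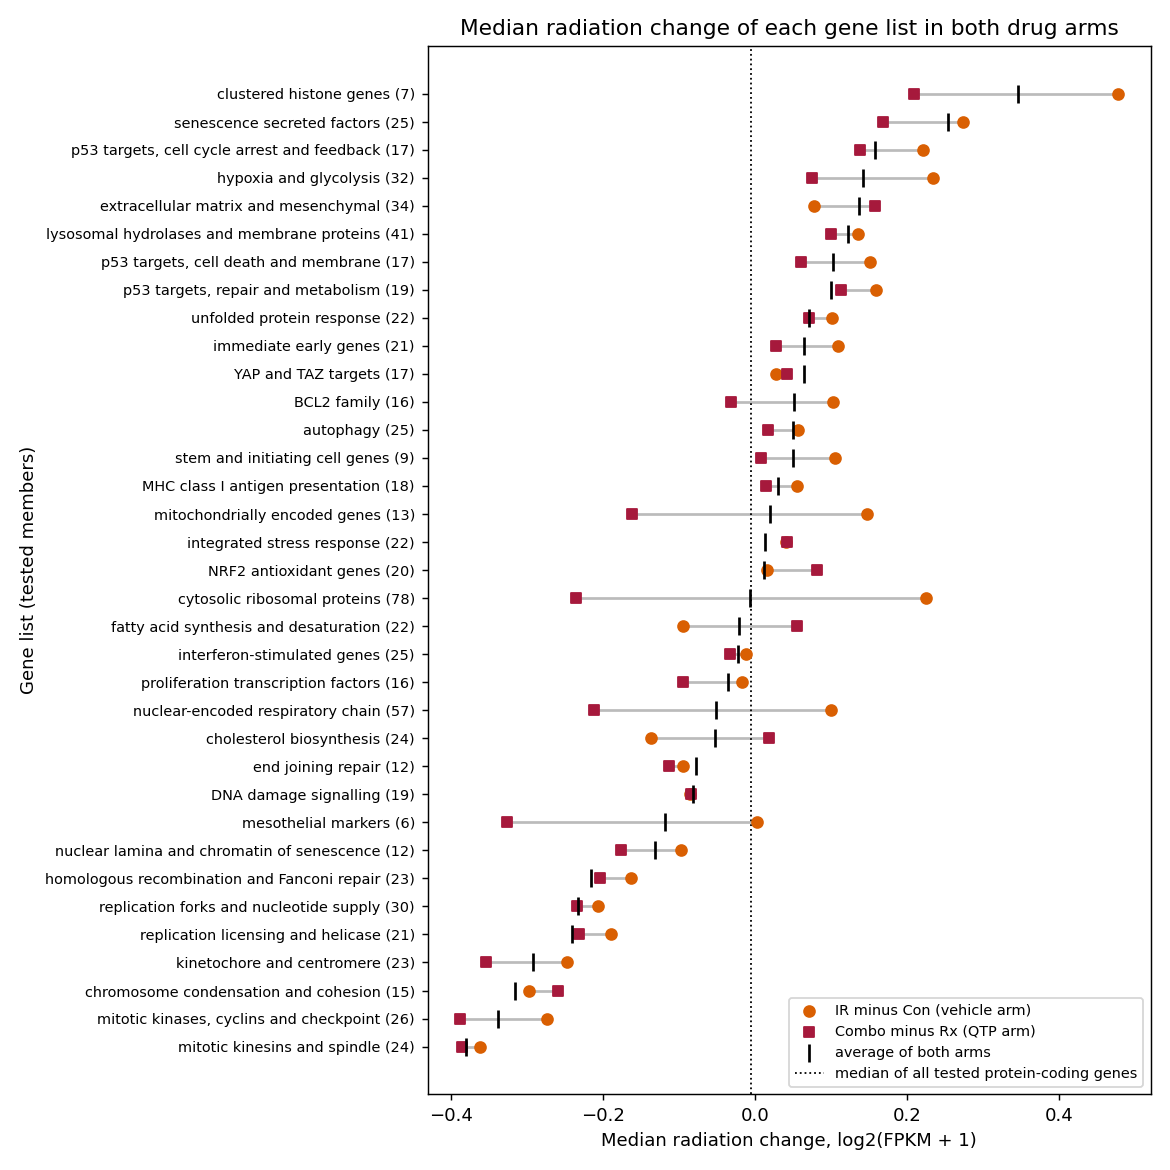
Median radiation difference on log2(FPKM + 1) of each gene list (number of tested members in brackets) for IR minus Con (circles), Combo minus Rx (squares) and their average (black ticks), with the median of all tested protein-coding genes (-0.01) dotted. The mitotic and replication lists lie below zero and the p53, histone, lysosomal and secreted-factor lists above zero in both arms, whereas cytosolic ribosomal proteins lie at 0.22 in one arm and -0.24 in the other.

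Targets of p53 were higher. Of 53 genes in 3 lists, 47 had a positive difference (47.7% of protein-coding genes did), 35 were positive in each arm (23.2% of protein-coding genes) and the median was 0.13. Unadjusted p was under 0.05 with a positive sign for 16 of 53, beside 3.33% of protein-coding genes. CDKN1A (ENSG00000124762, chromosome 6, 36676460 to 36687339 in hg38) measured 135, 151 and 157 FPKM in Con, 182, 221 and 220 in IR, 157, 181 and 165 in Rx, and 195, 242 and 194 in Combo. Every irradiated library was above every sham library, with IR 1 (182) just over Rx 2 (181), and the average difference was 0.41 (SE 0.08), with 0.49 in the vehicle arm and 0.32 in the QTP arm. It rested on 6340 to 14088 reads per library.

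Among the other members of arrest and feedback (15 of 17 higher, median 0.16), TP53INP1, a p53 target that adds to p53-dependent arrest and autophagy, measured 5.04, 4.45 and 5.06 FPKM in Con, 5.64, 5.84 and 5.50 in IR, 4.91, 4.06 and 5.18 in Rx, and 5.89, 6.95 and 6.19 in Combo. It did not overlap between the sides, and its difference was 0.28 (SE 0.06). BTG2, an antiproliferative cofactor of mRNA decay, measured 16.1, 15.3 and 15.8 FPKM in Con, 21, 20.7 and 22.3 in IR, 15, 15.4 and 13.8 in Rx, and 17, 19.8 and 14.3 in Combo. Its groups were apart in the vehicle arm and overlapped in the QTP arm at Combo 3, with differences of 0.41 and 0.19. MDM2, the ubiquitin ligase that limits p53, was at 22.1 to 35.3 FPKM in sham and 34.5 to 39.9 FPKM in irradiated libraries, a difference of 0.32 (SE 0.11) that was alike in the arms (0.31 and 0.33).

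Of 17 p53 targets in cell death and membrane signalling, 14 were higher (median 0.10). The 3 with the smallest p were EDA2R, a death-domain receptor (0.17, SE 0.07), BBC3, the BH3-only protein PUMA (0.15, SE 0.06), and TP53I3, an oxidoreductase (0.28, SE 0.11). TP53I3 differed by 0.46 in the vehicle arm and 0.09 in the QTP arm, and the difference between them had an unadjusted p of 0.124. Of 19 targets in repair and metabolism, 18 were higher (median 0.10). KITLG, the ligand of the receptor KIT, was at 0.33 (SE 0.10), SUSD6 at 0.16 (SE 0.07), and DDB2, which recognizes UV lesions, at 0.15 (SE 0.06). The median of each of the 3 lists stayed positive in every setting tried (lowest 0.12, 0.09 and 0.08). The number of the 17 arrest genes higher at an unadjusted p under 0.05 was 8, and 5 without Con 2 or without IR 3. For death genes it was 4, 0 without Combo 2, 1 without Con 2 and 2 without IR 1, IR 3 or Rx 1. For repair genes it was 4, and 2 without Con 1, IR 2, Rx 1, Rx 2 or Combo 2. In the full set, 3.33% of protein-coding genes were higher at that threshold. Over all 13038 tested genes the higher count was 435. Leaving out single libraries gave 722 (Con 1), 304 (Con 2), 488 (IR 1), 359 (IR 2), 617 (IR 3), 390 (Rx 1), 516 (Rx 2) and 357 (Combo 2).

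Clustered histone genes were the list with the highest median: all 7 tested members were higher, 6 of them in each arm, with a median of 0.35 (0.48 in the vehicle arm and 0.21 in the QTP arm). Most transcripts of these genes lack a poly(A) tail and are made in S phase, while a few members also give polyadenylated transcripts outside it; how RNA was selected for the libraries is not given in the sources used here. HIST1H2BK measured 51.9, 51.6 and 68.7 FPKM in Con, 80.6, 78.9 and 110 in IR, 64.1, 64.7 and 78.2 in Rx, and 84.3, 68.7 and 86.8 in Combo. The groups were apart in the vehicle arm, Combo 2 was below Rx 3 in the QTP arm, and the average difference was 0.42 (SE 0.11). HIST1H2AC differed by 0.41 (SE 0.10), and HIST1H1C, a linker histone, by 0.35 (SE 0.10). Histone genes share sequence and lie close together, so reads may be misassigned among them. Without IR 3 and Combo 3 the list median was 0.23.

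**Figure D4:**
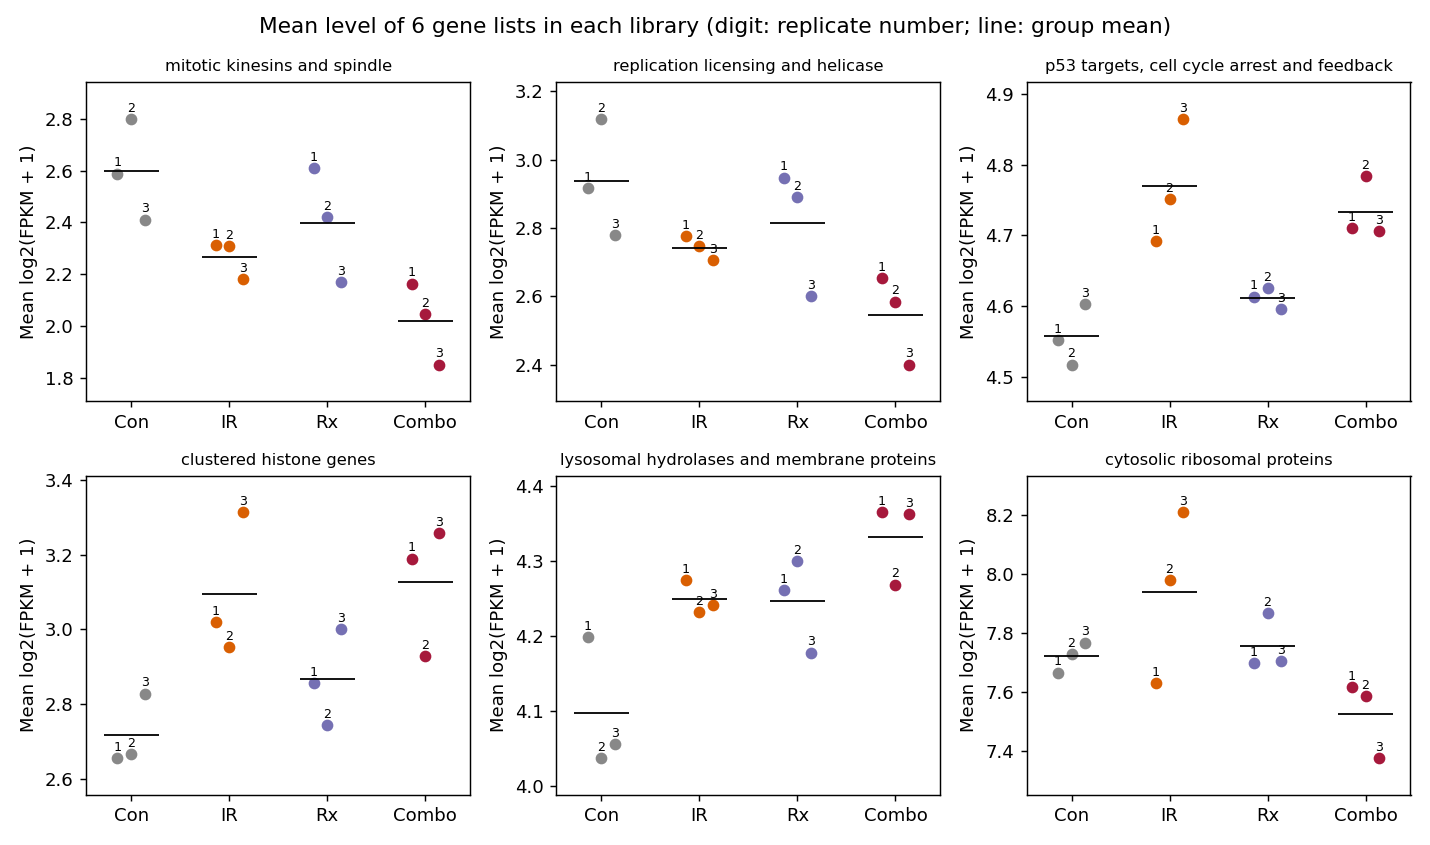
Mean log2(FPKM + 1) (vertical axes, not from 0) over the members of 6 gene lists in each library (points, digit: replicate number) by group, with the group mean (line). Irradiated libraries lie below sham libraries within each arm for kinesins (Combo at most 2.16, Rx at least 2.17) and above them for p53 targets of arrest, while for ribosomal proteins IR 3 (8.21) and Combo 3 (7.38) are at opposite ends.

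Genes that repair breaks through homologous recombination and the Fanconi pathway were mostly lower: 20 of 23, 18 of them in each arm, with a median of -0.22. FANCD2, the protein that is ubiquitinated at stalled forks, measured 2.23, 2.82 and 1.77 FPKM in Con, 1.54, 1.64 and 1.61 in IR, 2.47, 1.91 and 1.81 in Rx, and 1.67, 1.52 and 1.49 in Combo. All irradiated libraries were below all sham libraries, and the difference was -0.29 (SE 0.09). RAD54L, a motor of strand exchange, differed by -0.48 (SE 0.11) and XRCC2, a recombination protein, by -0.34 (SE 0.10). The count that was lower with an unadjusted p under 0.05 was 11 of 23, beside 5.53% of protein-coding genes. It was 7 without Con 2, IR 3, Rx 1 or Combo 3, and 6 without both IR 3 and Combo 3. Over all 13038 tested genes the lower count was 674. The same sets gave 439 (Con 2), 985 (IR 3), 587 (Rx 1), 465 (Combo 3) and 685 (both IR 3 and Combo 3). Of 19 damage-signalling genes 14 were lower (median -0.08, and -0.05 without Combo 2), with H2AFX, the histone phosphorylated at breaks, at -0.32 (SE 0.08), MDC1, which binds it, at -0.16 (SE 0.05) and TOPBP1, an activator of ATR, at -0.14 (SE 0.04). The 12 end-joining genes had a median of -0.08, and the ones with the smallest p were LIG3 (-0.26, SE 0.08), PARP1 (-0.13, SE 0.06) and XRCC5, the Ku80 subunit (-0.10, SE 0.06).

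Of 12 genes for the nuclear lamina and chromatin, chosen because several are lost in senescent cells, 10 were lower and 8 of these in each arm (median -0.13). LMNB1, lamin B1, measured 9.95, 11.7 and 9.23 FPKM in Con, 8.79, 8.18 and 8.20 in IR, 10.5, 9.50 and 7.13 in Rx, and 7.75, 7.03 and 6.06 in Combo. The difference was -0.29 (SE 0.09), with Rx 3 low in the QTP arm. TMPO, a lamina-binding protein, was at -0.25 (SE 0.07), and EZH2, the methyltransferase of histone H3 lysine 27, at -0.25 (SE 0.08). LMNB1, TMPO and EZH2 are also known to be expressed with the cell cycle.

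Lysosomal genes were higher by small amounts: 37 of 41, of which 30 in each arm, with a median of 0.12 that ranged from 0.10 to 0.13 over the settings tried. Unadjusted p was under 0.05 with a positive sign for 15 of 41, beside 3.33% of protein-coding genes. The count was 10 without Con 3, Combo 1, or IR 3 and Combo 3. Over all 13038 tested genes the higher count was 435, and it was 324, 353 and 468 in those sets. IDS, the sulfatase deficient in Hunter syndrome, measured 25.4, 23.5 and 24.0 FPKM in Con, 27.2, 29.7 and 30.9 in IR, 25.8, 26.8 and 26.2 in Rx, and 28, 30.4 and 29.4 in Combo. Its irradiated and sham libraries did not overlap, and the difference was 0.20 (SE 0.04). GLB1, the lysosomal beta-galactosidase whose activity is stained in senescent cells, was at 13.8 to 18.1 FPKM in sham and 16.9 to 20.1 FPKM in irradiated libraries (difference 0.22, SE 0.06). CTSB, cathepsin B, was at 50.2 to 72.7 FPKM in sham and 70.1 to 87.0 FPKM in irradiated libraries (0.35, SE 0.10). For autophagy genes, 20 of 25 were positive with a median of 0.05 and 0 had an unadjusted p under 0.05 in limma; after adjustment limma also called 0.

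Secreted factors tied to senescence were higher in 22 of 25 cases, 18 of them in each arm, with a median of 0.25. IL1B, a cytokine, measured 1.85, 1.43 and 1.17 FPKM in Con, 1.99, 2.29 and 1.94 in IR, 1.99, 3.16 and 1.19 in Rx, and 2.72, 2.75 and 3.45 in Combo. Its groups were apart in the vehicle arm, Rx 2 (3.16) lay above 2 of the 3 Combo libraries, and the difference was 0.36 (SE 0.14). PLAUR, the urokinase receptor, was at 0.25 (SE 0.10). The median was 0.15 without Rx 3. In the full set 5 of 25 had a positive sign and an unadjusted p under 0.05, beside 3.33% of protein-coding genes. That count ran from 0 without Con 3 or Rx 3 to 13 without Con 1 (1 without Con 2, 2 without IR 1 or Combo 3, 9 without Rx 2). Over all 13038 tested genes the higher count was 435, 324 without Con 3, 411 without Rx 3 and 722 without Con 1.

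Hypoxia and glycolysis genes were positive in 32 of 32 cases (median 0.14), 21 of them in each arm, but their replicates were widely spread. Of the 32, 1 had an unadjusted p under 0.05, beside 3.33% of protein-coding genes that were higher at that threshold. NDRG1 measured 42.1, 13.6 and 4.34 FPKM in Con alone, wider than its irradiated range of 21.4 to 43.5 FPKM, and its difference of 0.80 had a standard error of 0.44. P4HA1 and P4HA2, collagen prolyl hydroxylases, differed by 0.34 (SE 0.18) and 0.41 (SE 0.18). The list median was 0.24 without Con 1, 0.06 without Con 3 and 0.09 without either IR 1 or Rx 3. Of 34 genes of the extracellular matrix and mesenchymal state, 26 were positive (median 0.14, and 0.08 without IR 1), with COL6A2 at 0.20 (SE 0.08), ACTA2 at 0.30 (SE 0.13) and COL3A1 at -0.24 (SE 0.09).

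The genes at the top of the ranking by p, apart from those already given, came from other functions. On the higher side, PLTP, which transfers phospholipids between lipoproteins, measured 31.4, 26.5 and 27.2 FPKM in Con, 38.9, 37.2 and 41.5 in IR, 29.5, 33.8 and 29.9 in Rx, and 34.5, 36.1 and 32.4 in Combo. Its difference was 0.46 in the vehicle arm and 0.14 in the QTP arm, where the groups overlapped. CEP120, a centriole protein, differed by 0.25 (SE 0.05), MR1, which presents microbial metabolites to T cells, by 0.19 (SE 0.04) and APH1B, a gamma-secretase subunit, by 0.31 (SE 0.07), and in each of them all 6 irradiated libraries were above all 6 sham libraries. CDH10, a cadherin, was at 0.38 (SE 0.08), CPEB2, a translational regulator, at 0.34 (SE 0.08), MOXD1 at 0.23 (SE 0.05) and LRPAP1, the chaperone of the LDL receptor family, at 0.20 (SE 0.04). MOXD1 differed by 0.32 in the vehicle arm and 0.14 in the QTP arm, and LRPAP1 by 0.32 and 0.08. Both overlapped in the QTP arm. By limma the difference between arms had an unadjusted p of 0.0206 for PLTP, 0.0211 for LRPAP1 and 0.113 for MOXD1.

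On the lower side, GPRIN1 measured 6.65, 7.17 and 7.77 FPKM in Con, 6.09, 5.81 and 6.08 in IR, 6.84, 7.22 and 7.57 in Rx, and 5.85, 5.51 and 4.99 in Combo, without overlap between the sides (difference -0.29, SE 0.05, the smallest p in the table). CACNG8, an auxiliary subunit of glutamate receptors, was at 10.3, 11.2 and 11.1 FPKM in Con, 8.17, 8.84 and 7.52 in IR, 10.8, 10.6 and 11.3 in Rx, and 10.1, 8.99 and 9.54 in Combo. Its sides also did not overlap (difference -0.27, SE 0.05). POC1A, a centriole protein (-0.43, SE 0.08), SAPCD2, which acts in spindle orientation (-0.37, SE 0.07), and KRT80, a keratin, showed no overlap either. KRT80 differed by -0.35 in the vehicle arm and -0.34 in the QTP arm. DEPDC1B (-0.29, SE 0.06) and FAM83D, a spindle protein (-0.47, SE 0.10), were apart within each arm. By limma with Benjamini-Hochberg adjustment, every one of these genes had an adjusted p of 0.349 or more.

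Over all protein-coding genes, listed or not, the likeness of the arms moved with IR 3 and Combo 3. With all libraries, the sign of the difference was the same in both arms for 48.6% of them, and across genes, which are not independent replicates, r between the arms was 0.11 and rho was 0.01. Without IR 3 and Combo 3 the same sign was seen for 61.8%, with r of 0.45 and rho of 0.37.

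Cytosolic ribosomal proteins, which build the translating ribosome, are where the average over arms describes neither arm. Their median was -0.01 on average, 0.22 in the vehicle arm and -0.24 in the QTP arm, and of 78 genes 1 was positive in each arm (RPS10, whose reads may be shared with copies, at 0.15 and 0.14) and 0 were negative in each arm. The difference between arms had an unadjusted p under 0.05 for 50 of 78 genes, against 6.82% of protein-coding genes, and limma called 0 after adjustment. RPL10 measured 191, 184 and 185 FPKM in Con, 204, 233 and 256 in IR, 174, 221 and 178 in Rx, and 178, 190 and 163 in Combo. IR 3 held the highest and Combo 3 the lowest value, as for the mean of the list, where IR 3 was at 8.21 and Combo 3 at 7.38 on log2(FPKM + 1) and the sham libraries were between 7.67 and 7.87. Without these 2 libraries the medians were 0.08 and -0.16. For the difference between arms, 1 of 78 genes then had an unadjusted p under 0.05, beside 1.34% of protein-coding genes. The 57 nuclear genes of the respiratory chain had medians of 0.10 and -0.21, and of -0.005 and -0.15 without IR 3 and Combo 3.

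**Figure D5:**
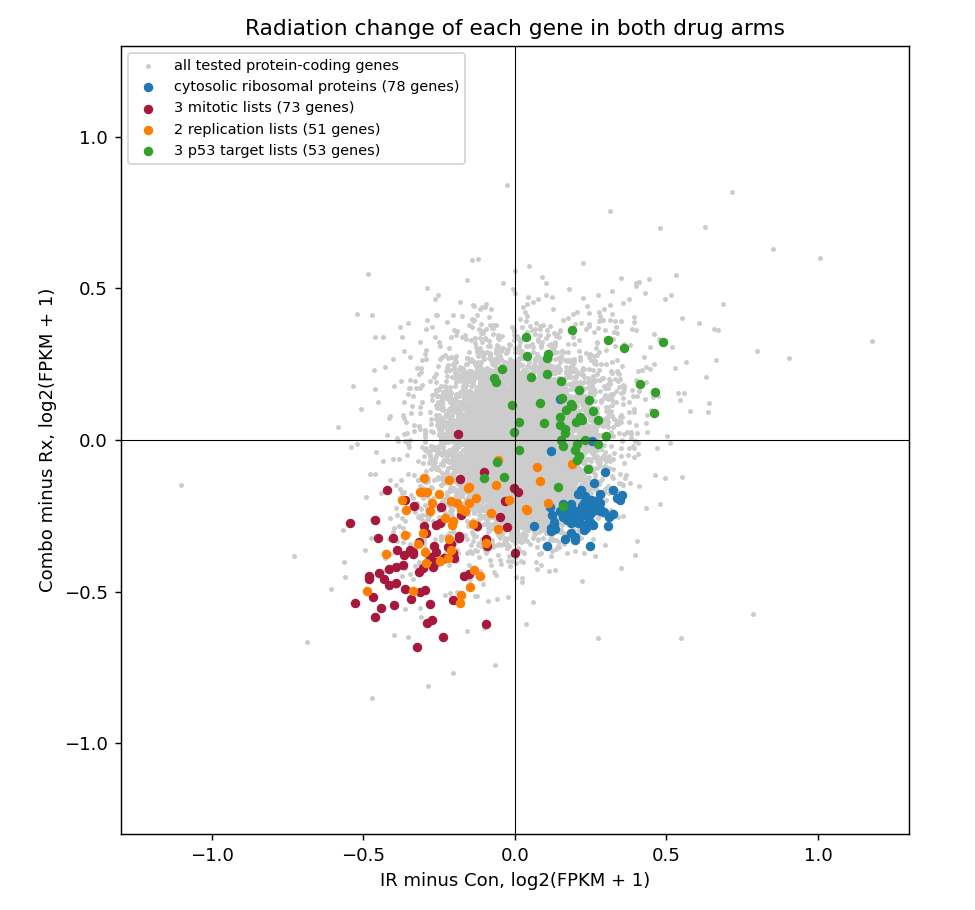
Radiation difference on log2(FPKM + 1) in the QTP arm (Combo minus Rx, vertical) against that in the vehicle arm (IR minus Con, horizontal) for each tested protein-coding gene (grey), with 4 groups of lists in colour; no gene lies outside the axes. Nearly all mitotic and replication genes lie at the lower left, most p53 targets in the upper right, and cytosolic ribosomal proteins in the lower right.

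Markers of the cells of origin were also compared. Of 6 tested mesothelial markers, 5 were lower on average and 3 were lower in both arms. The median was -0.12, with 0.003 in the vehicle arm and -0.33 in the QTP arm, and it was -0.21 without Rx 1 or Combo 2 and -0.07 without Combo 3. The summed level of the whole list was 704 to 1440 FPKM in irradiated and 956 to 1320 FPKM in sham libraries. CALB2, calretinin, measured 19.8, 33.9 and 22.0 FPKM in Con, 16.2, 19.5 and 21.3 in IR, 19.2, 27.3 and 19.6 in Rx, and 14.5, 15.3 and 13.6 in Combo. It was apart in the QTP arm and overlapped in the vehicle arm, with a difference of -0.46 (SE 0.13). KRT8 differed by -0.20 (SE 0.11), and BAP1, a tumour suppressor deubiquitinase often lost in mesothelioma, by -0.06 (SE 0.04). The part of any shift in cell state in the other results was not tested.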

How the data were processed

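RNA sequencing of 12 libraries was analysed from 1 table. Per the labels, RNA was taken with Trizol and columns, and sequencing libraries came from a NEBNext Ultra kit. The authors deposited FPKM per gene with biotypes, coordinates and a gene length, the other unit, in bases. Per the submitters' processing notes, the genome build was hg38. The aligner, counter and strand setting were not given in the sources used here. Genes that overlap can share reads.

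Deposited FPKM times length were whole multiples of 1 read in 100% of values (tolerance 0.01), which gave the read totals; 1 FPKM in a gene of 1 kb rests on 13.3 to 19.1 reads. Log2(FPKM + 1) of genes whose mean reached 1 FPKM was fitted as 4 group means with limma 3.58.1 in R 4.3.3 (variance trend, 8 residual degrees of freedom, two-sided moderated tests, Benjamini-Hochberg threshold 0.05 over the whole table), and the contrast averaged both arms. Comparing replicates by chi-square of reads per degree of freedom gave 7.09 to 39.9, so none repeated another. The test was tried on simulated reads with independent noise and planted changes larger than nearly all differences here. That trial does not show how the test handles small differences or shifts of whole libraries.

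The comparison and the 36 gene lists were chosen with earlier results of these data known, and lists are described by counts and medians only. Genes were named by rule: the 12 with the smallest p in each direction and the same sign in both arms, up to 3 with the smallest p in each list, and CDKN1A, BTG2, MDM2, MKI67 and LMNB1. KRT18, MSLN, PDPN, KRT19, UPK3B, CD3E, LYZ, LIN28B and KIF20A were added after their values were seen. Some items that the rule named are not reported here. Other settings are in the closing section. Promoters are from RefSeq by symbol (8631 of 10750 matched).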

Additional observations from a re-analysis of the deposited data

How the results depend on the processing

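With every gene detected and no filter on low values, 5 genes were higher and 6 differed between arms. The 5 were noncoding or pseudogene entries near the floor, with means of 0.0341 to 0.464 FPKM. Library quality weights called 141 higher and 218 lower, but gave IR 2 a weight of 17.4, where the others had 0.295 to 1.62. Leaving out each library in turn, 0 to 1 genes were lower (1 without Rx 2) and 0 to 3 differed between arms (3 without IR 1, 1 without Rx 3). The gene called lower without Rx 2 was a snoRNA of 91 bases with a mean of 1.68 FPKM. No other setting tried (pseudocount 0.1, a mean of at least 5 FPKM, protein-coding genes alone, TPM, median of ratios, quantiles, an additive model, no variance trend, voom, without IR 3 and Combo 3) called a gene. The causes were not tested.

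With the replicate number as a block, 0 genes were higher and 3 were lower (MKI67, KIF20A and FOXM1, adjusted p 0.0432 by limma). The numbers were not taken to pair the libraries. Deviations of same-numbered libraries correlated at -0.207 to 0.354 (mean 0.122), with 11 of 18 pairs over 0.1. Those of differently numbered libraries correlated at -0.272 to 0.262 (mean -0.061), with 6 of 36 pairs over 0.1. Of 12 libraries, 10 correlated best with their own number, a hint from the data and not from the design. For the mitotic lists, replicate 3 was also the lowest library of each group.

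Small positive values changed sign. The log2 change of MT-ND5 was -0.0286 with quantiles, -0.0346 with weights and -0.0233 without IR 3 and Combo 3. The same occurred for MT-ND6 (-0.0281 without IR 3 and Combo 3) and MT-ND4L (-0.003 without those libraries, and -0.0297 to 0.149 with each library left out, the lowest without IR 3). List medians also changed sign in some setting for proliferation factors, interferon, integrated stress, NRF2, cholesterol, fatty acid, respiratory chain, mitochondrial and ribosomal genes. Depth of 13.3 to 19.1 reads per FPKM in 1 kb limits low genes, and 3 libraries per group limit the rest.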

Other observations

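Of 18 genes of MHC class I antigen presentation, 10 were higher and 8 lower. Their median was 0.03, but 0.01 without IR 1 or Rx 3, 0.05 without Con 1, IR 2 or Rx 1, and 0.07 without IR 3. Of 25 interferon-stimulated genes, 9 were higher and 16 lower (median -0.02, from -0.08 without Combo 1 to 0.02 without Con 3), with IFI35 at -0.20 (SE 0.06). Of 22 genes of the unfolded protein response, 18 were higher (median 0.07), among them the chaperones HSP90B1 (0.17, SE 0.07) and DNAJB9 (0.23, SE 0.09).

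Of 21 immediate early genes, 14 were higher (median 0.06, and 0.10 without Rx 2 and 0.02 without Combo 2), led by DUSP5, a phosphatase of ERK (0.27, SE 0.08), and IER5 (0.13, SE 0.04), which was apart in the vehicle arm (46.3 to 48.2 FPKM in Con, 53 to 58.2 in IR) and overlapped in the QTP arm. ATF3, a stress-induced transcription factor, differed by 0.20 (SE 0.07) and TXNRD1, thioredoxin reductase, by 0.25 (SE 0.07), in lists whose medians of 0.01 changed sign when single libraries were left out. Of 16 BCL2 family genes, 12 were higher (median 0.05, with 0.10 in the vehicle arm and -0.03 in the QTP arm), and BCL2L12 was at -0.29 (SE 0.09). Of 24 cholesterol biosynthesis genes, 18 were lower (median -0.05, from -0.12 without Rx 1 to 0.02 without Rx 2), with -0.14 in the vehicle arm and 0.02 in the QTP arm. Of 20 stem and initiating cell genes, 9 passed the filter and LIN28B was at 0 in all libraries; CD44 was at 37.1 to 48.5 FPKM in sham and 43.6 to 48.1 FPKM in irradiated libraries.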
